A study of Mus musculus with 8 samples.

Results

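The cells described here were adult cells sorted through the cortical thymic epithelial cell (cTEC) gate in which no transcript of Psmb11 or Prss16, both of which mark the cortex, was counted. Single-cell RNA sequencing counted unique molecular identifiers (UMIs), each standing for 1 captured mRNA molecule. Cells of the 2 adult cTEC libraries were kept with at most 5% mitochondrial UMIs and at most 5000 detected genes. Those with 0 UMIs of Psmb11, 0 of Prss16 and fewer than 20 of Bpifa1, an airway-type secretory transcript, are called marker-negative cells. They numbered 259 of the 1042 kept cells of the gate, and of the 25750 kept cells of the 8 libraries. Kept cells with at least 1 UMI of Psmb11 or Prss16, 761 in all, are called marker-positive cells and served as the comparison within each library.

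All adult libraries came from the thymus of C57 B6 (CD45.2) mice of WT genotype. These were 4 to 6 weeks old and of either sex by the study's methods, and neither source used here says how many animals went into a library. Sorted cells were DAPI- EpCAM+ CD45- throughout, so viable, epithelial and not of blood origin by surface stain, with Ly51+ UEA-1- for cTEC and Ly51- UEA-1+ for medullary TEC (mTEC). Ly51 is the product of Enpep, which the sort therefore selected, and UEA-1 is a lectin that binds mTEC. Each adult gate had 2 libraries, called replicate 1 and replicate 2, and each replicate belonged to a different data set of the study, so that library, run and any difference in handling between data sets cannot be told apart.

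The thymic epithelium is the tissue in which T cells are made and selected. Cortical TEC attract progenitors, hold them with Notch ligands and chemokines, and select thymocytes on peptides cut by an unusual proteasome; Psmb11 encodes the beta5t subunit of that proteasome and Prss16 a thymus-specific serine protease of the class II pathway. Medullary TEC attract the selected cells with CCL21 and CCL19, and, under Aire and Fezf2, display proteins of other tissues so that self-reactive T cells are removed. Foxn1 is the transcription factor on which both lineages depend, and Psmb11 and Ccl25 are known targets of it. Epithelial cells that lack the mature products of either lineage are of interest because progenitors are sought among them, and surface Sca-1, encoded by Ly6a, has been used to look for such cells.

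FOXN1 is known to bind a short core, GACGC, and the promoters of 2 cortical genes show what that looks like at a gene that chose the cells and at a chemokine gene that was low in them. The following windows come from RefSeq promoters (build GRCm38.p6, 250 bases before to 50 after the gene's start), are written along the gene's strand, and have the core in capitals, as GACGC or, when on the opposite strand, as GCGTC. The first pair are from the Psmb11 promoter and the second pair from that of Ccl25.
Psmb11, chr14:54625061-54625085, plus strand: ctgacaggtgGCGTCttcagagtgt
Psmb11, chr14:54625238-54625262, plus strand: cttctccacaGCGTCctcctcctcc
Ccl25, chr8:4325144-4325168, plus strand: ttgaagaagcGACGCtcattggttg
Ccl25, chr8:4325212-4325236, plus strand: cttcctgtcgGCGTCgtccgcggtg
The cores began 239 and 62 bases before the start of Psmb11 (-239 and -62), and at -56 and 13 from that of Ccl25. Searched on both strands, the core occurred at least once in 27.35% of 27025 RefSeq promoters and at least 2 times in 8.281%, so its presence alone is common. Of the 17 cortical genes listed, 13 were matched to a promoter and 6 of these held the core: Psmb11 and Ccl25 with 2, and Cxcl12, Enpep, Kitl and Snhg11 with 1. No match was found in this window for Tbata, Ctsl, Ackr4, Scn1a, Foxn1, Ly75 or Dll4, which says only that these letters were not in these bases.

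Marker-negative cells made up a larger share of replicate 1 than of replicate 2. They were 163 of 507 cells in replicate 1, a share of 32.1% (95% exact interval 28.1 to 36.4), and 96 of 535 in replicate 2, or 17.9% (14.8 to 21.5). The intervals, which cover counting error only, do not overlap. The cells were shallower than the marker-positive ones, with a median of 2854 against 4667 UMIs in replicate 1 and 5089.5 against 7684 in replicate 2. Their sums came to 520263 and 487311 UMIs. After every cell was thinned to 3000 UMIs, leaving out shallower cells, 27.5% of 356 and 22.0% of 509 cells had neither transcript and met the rule. At 1500 UMIs these shares were 47.8% of 477 and 31.2% of 529. Replicate 1 had the larger share at both depths.

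A count of 0 depended on depth within the gate as well. Of the marker-positive cells, thinned to 1500 UMIs, 79 of 322 (24.5%) in replicate 1 and 73 of 425 (17.2%) in replicate 2 lost all UMIs of Psmb11 and Prss16. At 3000 UMIs the losses were 7.72% and 7.25%. How many marker-negative cells carried the transcripts below detection was not tested further. The Bpifa1 limit touched few cells: inside it the highest counts were 15 UMIs in replicate 1 and 2 in replicate 2, outside it the lowest were 24 and 25, and it left out 9 and 13 cells.

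The same rule applied to other stages found such cells in different proportions. It was met by 21.9% of 1981 cells of the E13.5 library of total TEC, which were sorted without Ly51 or UEA-1, but by 0.532% of cells of the E15.5 cTEC library, 0.0719% at E17.5 and 0.444% in newborns. Each of these was a single library, so these shares have no replicate check. In the adult mTEC gate the rule was met by 74.7% of 1586 cells in replicate 1 and 69.8% of 5615 in replicate 2.

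The cells did not lack all cortical transcripts, as the levels of Ackr4 and Scn1a given below show. Levels are given as CPM, the UMIs of a gene summed over the cells of a class, divided by all UMIs of that class and scaled to 1000000. Ctsl, the cortical protease cathepsin L, was at 2687 and 1865 CPM in marker-negative cells, 8973 and 11020 CPM in marker-positive cells, and 985 and 519 CPM in mTEC picked by the same rule. The cells thus stood between the other classes for Ctsl in both libraries. At 1500 UMIs Ctsl was seen in 90.5% and 75.8% of them and in 51.9% and 36.3% of mTEC. The part of free RNA from the abundant Ctsl of marker-positive cells was not tested.

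Some cortical transcripts were at the level of marker-positive cells. Ackr4, a scavenging receptor for CCL19, CCL21 and CCL25, stood at 206 and 135 CPM in marker-negative cells and at 205 and 120 CPM in marker-positive ones, against 2.9 and 2.07 CPM in mTEC. Scn1a, a sodium channel subunit, was at 96.1 and 36.9 CPM against 77 and 33.7 CPM, with 1 and 8 UMIs in all in the mTEC libraries. Kitl, the stem cell factor on which early thymocytes depend, was at 55.7 and 75.9 CPM against 59.2 and 93.6 CPM. Il7, the cytokine thymocytes need to survive, was at 115 and 129 CPM against 169 and 190 CPM. For Ackr4, Scn1a and Kitl the classes of the gate differed by less than the libraries did, and Il7 was somewhat lower in both libraries.

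Other cortical transcripts were low. Ccl25, which attracts progenitors, was at 229 and 140 CPM in marker-negative cells and 3169 and 4481 CPM in marker-positive cells. Tbata, a stromal regulator of epithelial growth, was at 417 and 121 CPM against 5335 and 8267 CPM. Foxn1 was at 42.3 and 18.5 CPM against 124 and 88.7 CPM. Each of these was lower in both libraries, with no overlap between classes. Cxcl12, the chemokine that keeps early thymocytes in the cortex, was at 352 and 433 CPM against 899 and 1818 CPM. Psmb10, a subunit of the immunoproteasome and thymoproteasome, was at 236 and 289 CPM against 829 and 1331 CPM. Ly75, Dll4, Cd83 and Snhg11 were likewise more than 2-fold lower in both.

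Of the 15 listed cortical genes other than Psmb11 and Prss16, 9 were more than 2-fold lower than in marker-positive cells in both libraries (on CPM + 10) and none was higher, with a median log2 difference of -1.82 over the list and 0.01 over all 12722 genes tested. By this criterion 0.935% of all genes were lower and 1.09% higher. The rule chose the cells by cortical transcripts, so the values of this contrast are a description, and no p-value is given for them. Epithelial transcripts were present: Epcam, which encodes an antigen of the sort, was at 757 and 739 CPM against 638 and 450 CPM. Krt8 was at 1374 and 1297 CPM against 3541 and 3900 CPM, and Krt18, its partner keratin of simple epithelium, at 2504 and 1984 CPM against 6896 and 7664 CPM. The summed list of 14 epithelial genes was at 8157 and 7277 CPM against 14413 and 13988 CPM. Krt8 and Krt18 made up most of the marker-positive sum and were the only 2 genes of the list over 2-fold lower in both libraries (on CPM + 10). Krt14 and Cldn4 were over 2-fold higher and 10 genes were neither. The median log2 difference over the list was 0.469, so the lower sum does not hold for the list as a whole. The cells are therefore named here by the missing transcripts, not as a cell type.

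**Figure D1:**
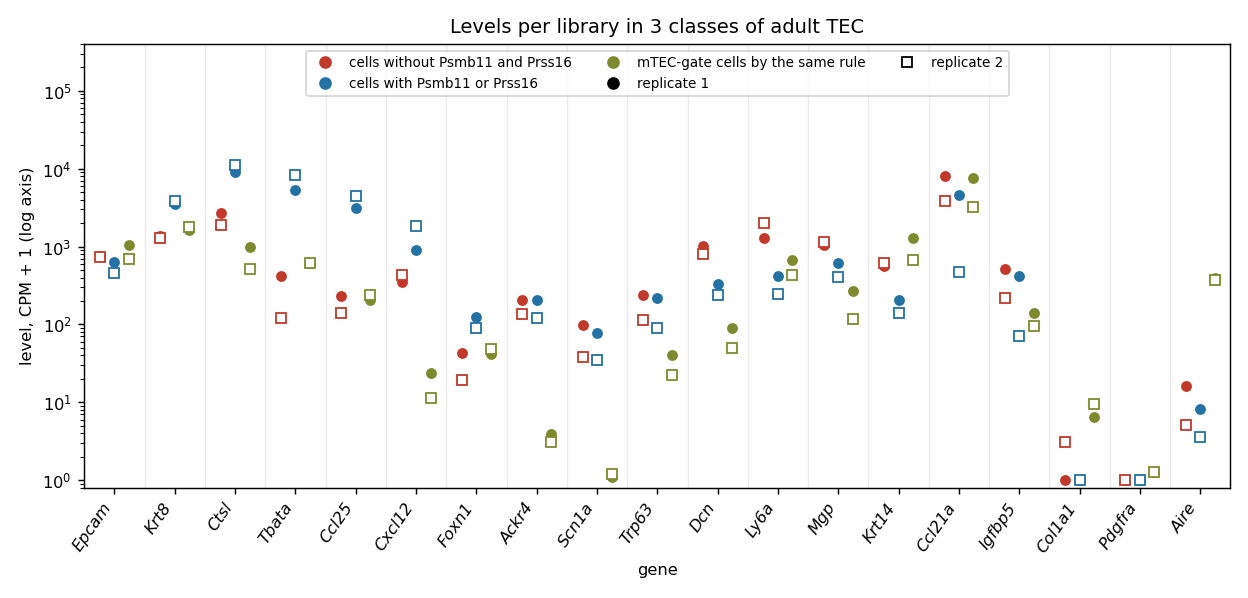
Levels of 19 genes (CPM + 1, log axis) in cells without Psmb11 and Prss16 UMIs (red), in marker-positive cells of the same gate (blue) and in mTEC by the same rule (green), with circles for replicate 1 and open squares for replicate 2. Ackr4 lies at one height in both cTEC-gate classes (206 and 135 against 205 and 120 CPM) and far lower in mTEC, while Ccl25 and Tbata are high in the blue points alone.

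Several listed genes stood more than 2-fold above marker-positive cells in both libraries (on CPM + 10), among them Dcn, Ly6a, Krt14, Gsn and Pdpn. So did 8 of 14 secretory epithelium genes, 7 of 8 tested endothelial genes and 6 of 10 genes proposed to mark TEC progenitors, Ly6a and Pdpn included. Dcn, the secreted proteoglycan decorin, was at 1007 and 790 CPM in marker-negative cells, 330 and 239 CPM in marker-positive cells, and 88.2 and 49.4 CPM in mTEC. Ly6a, encoding Sca-1, was at 1288 and 1980 CPM against 415 and 248 CPM, and at 671 and 431 CPM in mTEC. Both were highest in the marker-negative class in each library. Krt14, a keratin of basal epithelium, was at 569 and 609 CPM against 202 and 140 CPM, and at 1288 and 671 CPM in mTEC, which was the highest class. Mgp, an inhibitor of calcification, was at 1032 and 1155 CPM against 619 and 410 CPM, which was over 2-fold in replicate 2 alone, and Pdpn, a membrane glycoprotein of junctional and stromal TEC, at 202 and 164 CPM against 85.8 and 73.7 CPM. Trp63, the master regulator of stratified epithelium, was at similar levels in the 2 classes of the gate, 236 and 113 against 215 and 89.6 CPM.

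Dcn is best known from fibroblasts, so the markers of fibroblasts were counted. The list was mixed. The receptors and chains of collagen I were at or near 0 in marker-negative cells: Pdgfra and Pdgfrb had no UMI in either library, Col1a1 had 0 and 2.05 CPM, and Col1a2 had 0 and 6.16 CPM. Of 20 mesenchymal genes, 8 and 4 were at 0, and the summed list, most of it Dcn and Mgp, was at 2597 and 2358 CPM against 1213 and 769 CPM in marker-positive cells. Gsn, the actin-severing protein gelsolin, was at 454 and 275 CPM against 159 and 37.4 CPM, and Fbln1, a matrix protein, at 19.2 and 55.4 CPM against 9.47 and 31.1 CPM. At least 3 mesenchymal genes were detected in 51 of 163 and 43 of 96 marker-negative cells. The part of mesenchymal RNA in these levels was not tested. Dcn was also found in cells with Epcam. Epcam was detected in 76.7% of the 90 Dcn+ cells of replicate 1 against 68.5% of the rest, and in 85.5% of the 55 of replicate 2 against 63.4%. At 1500 UMIs these were 53.4% against 56.8% and 52.5% against 54.9%.

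Ccl21a, the chemokine of early mTEC, varied more between libraries than Dcn or Krt14. It stood at 7956 and 3841 CPM in marker-negative cells, 4541 and 476 CPM in marker-positive cells and 7540 and 3211 CPM in mTEC. Replicate 1 was above replicate 2 in every class, and by far the most in marker-positive cells. Nearly identical copies of this gene exist (Ccl21b and Ccl21c among them), the counts carried the identifier ENSMUSG00000094686, and reads of the copies may have been shared out or dropped in counting.

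Shares of cells are compared at a common 1500 UMIs, a depth reached by 147 and 91 marker-negative cells. Dcn was then seen in 49.7% (95% exact interval 41.3 to 58.0) and 44.0% (33.6 to 54.8) of them, against 25.5% and 22.4% of marker-positive cells and 10.0% and 6.59% of mTEC. Krt14 was seen in 30.6% (23.3 to 38.7) and 36.3% (26.4 to 47.0), against 18.3% and 15.53%, and 57.4% and 45.6% in mTEC. Ccl21a was seen in 38.8% (30.9 to 47.2) and 14.3% (7.83 to 23.2), against 32.0% and 3.06%, and 66.5% and 68.6% in mTEC. The intervals of Ccl21a did not overlap between the 2 libraries of marker-negative cells. As deposited, 35 of its 81 positive cells in replicate 1 had at least 10 UMIs (median 3) and 12 of 16 in replicate 2 (median 85.5), and how many of the lowest counts were free RNA was not tested. As deposited, without thinning, the shares were 55.2% and 57.3% for Dcn, 40.5% and 52.1% for Krt14, and 49.7% and 16.7% for Ccl21a.

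The markers were not held by the same cells in equal measure. Krt14 was detected in 53.3% of Dcn+ marker-negative cells and 24.7% of the rest in replicate 1, and in 74.5% against 22.0% in replicate 2. Ackr4 was detected in 48.9% against 13.7% and in 49.1% against 9.76%, and Mgp in 83.3% against 52.1% and in 90.9% against 26.8%. Dcn, Krt14, Mgp and Ackr4 thus went together in both libraries. Ccl21a did not follow Dcn, at 45.6% of Dcn+ cells against 54.8% of the rest, and 14.5% against 19.5%. Of Krt14+ cells in replicate 2, 22.0% had Ccl21a against 10.9% of the rest, and in replicate 1 the shares lay within 1 point of each other. Cldn4, a tight junction gene of luminal epithelium, was seen in 3.33% of Dcn+ cells against 20.5%, and in 3.64% against 29.3%. These are counts of cells in which more UMIs make any pair more likely, and are given without a test.

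**Figure D2:**
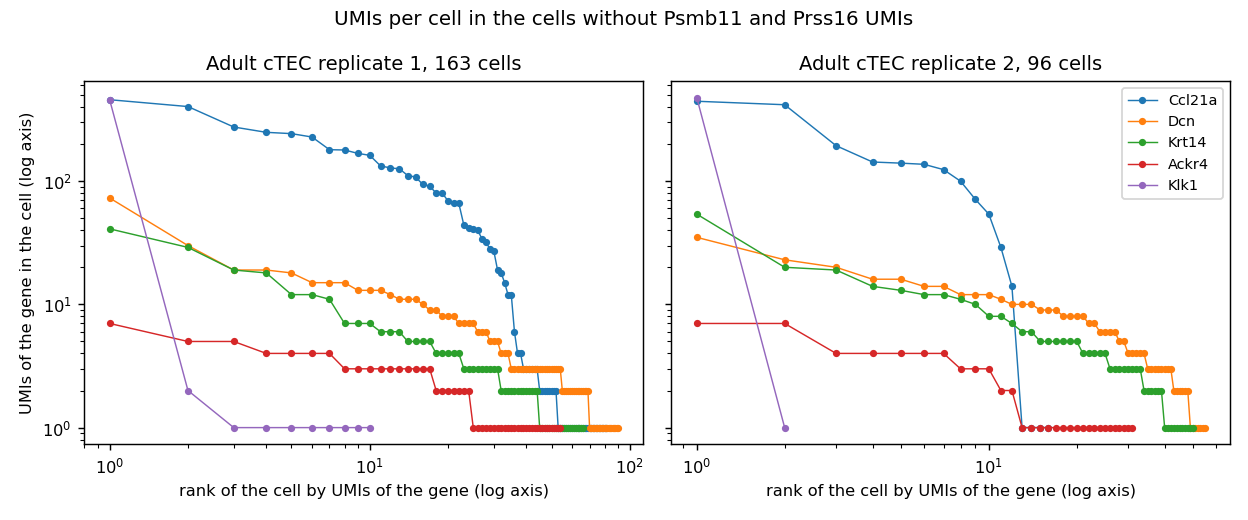
UMIs of 5 genes per marker-negative cell (log axis) against the rank of the cell by that gene's UMIs (log axis), 1 point per cell with at least 1 UMI and 1 panel per library. Dcn, Krt14 and Ackr4 decline slowly over many cells, whereas Klk1 drops from 457 UMIs in replicate 1 and 477 in replicate 2 to at most 2 in the next cell.

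Sums over a class can rest on a few cells, and several of these did. Klk1, a kallikrein of secretory epithelium, had 467 UMIs in marker-negative cells of replicate 1 and 478 in replicate 2, of which 457 and 477 lay in 1 cell each. Klk1b26 had 206 of its 208 UMIs of replicate 2 in 1 cell, and the 10 UMIs of Prap1 in replicate 1 also came from 1 cell. Wfdc18, a secreted protease inhibitor, had 87.3% and 78.2% of its UMIs in its top 5 cells. By contrast, the top 5 cells held 30.3% and 28.6% of Dcn UMIs and 23.4% and 39.4% of Ackr4 UMIs. For Ccl21a they held 39.3% and 71.5%, with at least 50 UMIs in 22 cells and in 10 cells.

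In the edgeR fit of sums, 17 of 12722 genes (0.134%) passed the threshold between marker-negative and marker-positive cells, 8 higher (0.0629%) and 9 lower (0.0707%) and nothing is read from this because the rule used the contrast. Without cTEC replicate 1 or 2, and with the data set term dropped as well, no gene passed (2027 and 1080 at an unadjusted p below 0.05 in edgeR), and without mTEC replicate 1 or 2 the counts were 777 and 823. Those higher were Klk1b26, Klk1, Klk1b11, Wfdc18, Prap1, Dapl1, Ctla2a and Fabp1. Klk1b11 and Ctla2a lay outside the rule for named genes and are given to complete the count. In replicate 1 Ctla2a was at 3399.5 CPM in the 6 endothelial-like cells described below and at 3.93 CPM in the other marker-negative cells. Of the 8, Klk1b26, Prap1 and Fabp1 had UMIs in 1 to 5 marker-negative cells per library. Those lower were Ccl25, Tbata, Slc22a7, Pithd1, Fabp5, Oma1, Trpm2, Fgf14 and Tmem131l. Fabp5, a fatty acid carrier, was at 1415 and 2114 CPM against 5978 and 11835 CPM. Trpm2, a cation channel, was at 3.84 and 2.05 CPM against 65.1 and 96.8 CPM. Both were picked by this contrast, so these values describe the classes and are no separate support.

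**Figure D3:**
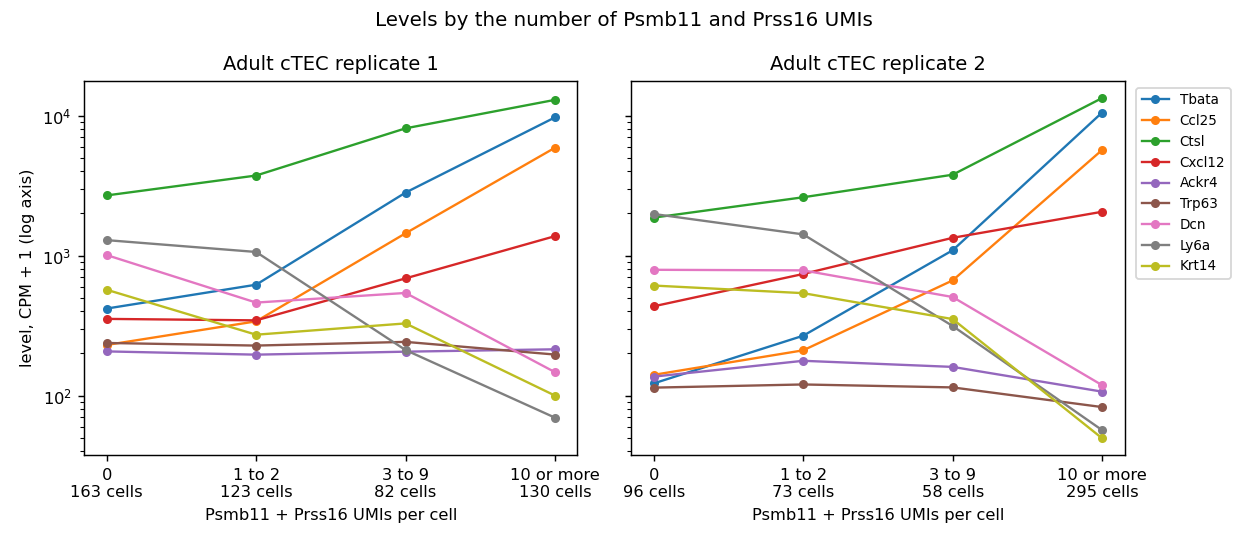
Levels of 9 genes (CPM + 1, log axis) by the summed UMIs of Psmb11 and Prss16 in a cell (0, 1 to 2, 3 to 9, and 10 or more), with 1 panel per library and the number of cells under each bin. From the lowest bin to the highest, Tbata goes from 417 to 9710 CPM in replicate 1 and from 121 to 10515 CPM in replicate 2, Dcn goes from 1007 to 146 and from 790 to 118 CPM, and Ackr4 stays between 195 and 213 and between 106 and 176 CPM.

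Levels of the other transcripts were followed over the number of Psmb11 and Prss16 UMIs per cell. Cells were grouped by their UMIs of Psmb11 and Prss16 together, with 163, 123, 82 and 130 cells at 0, 1 to 2, 3 to 9 and 10 or more in replicate 1, and 96, 73, 58 and 295 in replicate 2. Ly6a was at 1288, 1060, 210 and 68.4 CPM over these bins in replicate 1 and at 1980, 1416, 313 and 55.6 CPM in replicate 2. Tbata was at 417, 618, 2816 and 9710 CPM and at 121, 266, 1090 and 10515 CPM. Cells with 1 to 2 UMIs were closer to the marker-negative cells than to those with 10 or more for both genes in both libraries. Dcn was at 1007, 460, 539 and 146 CPM and at 790, 783, 504 and 118 CPM.

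Not every gene followed that order. Ackr4 was at 206, 195, 205 and 213 CPM in replicate 1 and at 135, 176, 159 and 106 CPM in replicate 2, and Trp63 at 236, 226, 241 and 195 CPM and at 113, 119, 113 and 81.7 CPM. Ccl21a was at 7956, 6219, 10364 and 726 CPM in replicate 1, and at 3841, 2781, 2.7 and 180 CPM in replicate 2, with no common course. UMIs of Psmb11 or Prss16 were also counted in 398 of 1586 and 1659 of 5615 cells of the mTEC gate, where 80.9% and 83.1% of such cells lost them on thinning to 1500 UMIs. A single UMI of either gene is therefore also met outside the cortical gate, and the part of free RNA in the lowest bins was not tested. The median depth was higher in each following bin, from 2854 to 5563 UMIs and from 5089.5 to 8672.

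When the marker-negative cells were clustered in each library by themselves, most fell into groups that expressed Dcn with Ackr4, and smaller groups stood apart. Replicate 1 gave 8 groups and replicate 2 gave 5. In replicate 1 the groups of 24, 24, 24 and 21 cells had Dcn at 1105 to 1952 CPM and Ackr4 at 312 to 415 CPM, with Krt14 from 276 to 1589 CPM. In replicate 2 the groups of 33 and 26 cells had Dcn at 1062 and 1395 CPM and Ackr4 at 188 and 125 CPM. No marker list named these groups.

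A group of 35 cells in replicate 1 was led by Ccl21a, at 34804 CPM against 326 CPM in the other marker-negative cells and in 97.1% of its cells, with Dcn at 382 and Ackr4 at 60.8 CPM. In replicate 2 the highest Ccl21a level was 8359 CPM, in a group of 16 cells, of which 3 held all of its Ccl21a UMIs. None of these 3 cells had a UMI of Ackr4. The group as a whole had Ackr4 at 224 CPM, the highest of that library's groups, and Dcn at 369 CPM. The groups of 33 and 26 cells with Dcn and Ackr4 also had Ccl21a, at 5622 and 1560 CPM. A separate group led by Ccl21a alone was thus formed in 1 of the 2 libraries. The genes that define a cluster are a description and were not tested.

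In each library 1 group met the rule for a secretory epithelium-like name: 14 cells in replicate 1, with 13 of 14 listed markers at least 2-fold above the other marker-negative cells, and 11 cells in replicate 2, with 12 of 14. Ly6a was high in them, at 4705 and 5844 CPM, Dcn was at 907 and 67.2 CPM, and Ackr4 was at 0 in both. Sca-1 transcript was therefore not particular to the Dcn+ Ackr4+ cells. Klk1 stood at 7820 and 8011 CPM in these groups, nearly all of it from 1 cell each, as given above.

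An endothelial-like group of 6 cells was found in replicate 1, with Plvap, a diaphragm protein of fenestrated endothelium, at 2205 CPM, Flt1, a VEGF receptor, at 2756 CPM and no UMI of Epcam, although the sort was for EpCAM+ cells. Cells with at least 3 of the 10 endothelial genes numbered 6 of 163 and 4 of 96. In replicate 2, 3 of the 4 lay in the group of 26 cells described above with Dcn and Ackr4, in which Plvap was at 282 CPM. The summed endothelial list was at 267 and 283 CPM in marker-negative cells, 65.1 and 3.46 CPM in marker-positive cells and 46.8 and 37.9 CPM in mTEC. Remaining groups of 15 cells in replicate 1 and 10 in replicate 2 shared Cd52 among their leading genes and had no name: in the former 10 of 12 thymocyte, 11 of 12 tuft and 8 of 14 secretory epithelium markers were at least 2-fold above the other marker-negative cells, but at least 3 genes of a list were detected in 5, 2 and 9 of its 15 cells, respectively. In the latter 10 of 12 markers of Aire-stage mTEC met the same fold, none of them among its 10 leading genes, while Ccl25 was at 893 CPM. Cells with at least 3 thymocyte genes numbered 5 in replicate 1, all in that group of 15, and 1 in replicate 2.

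**Figure D4:**
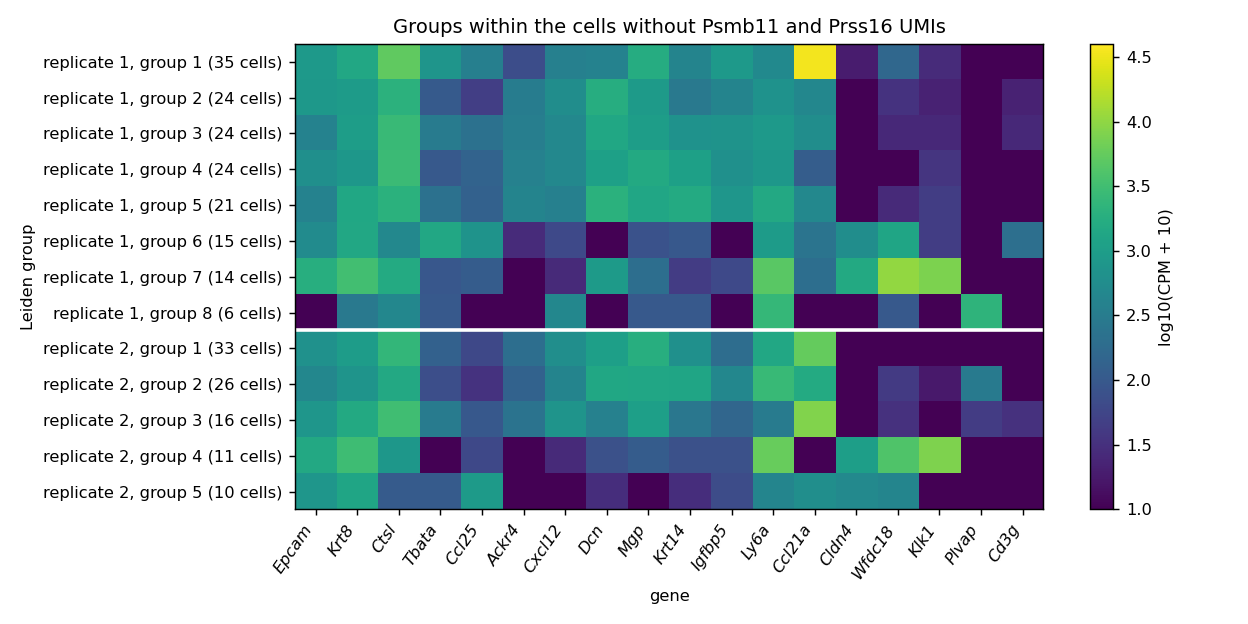
Levels of 18 genes (colour, log10 of CPM + 10) in the 8 groups of replicate 1 and the 5 groups of replicate 2 of marker-negative cells, with the number of cells in each. Dcn and Ackr4 are shared by groups 2 to 5 of replicate 1 and groups 1 and 2 of replicate 2. Group 3 of replicate 2 has the highest Ackr4 of that library (224 CPM) with less Dcn (369 CPM). Ccl21a peaks in group 1 of replicate 1 (34804 CPM), and the secretory epithelium-like groups (7 of replicate 1 and 4 of replicate 2) have no Ackr4.

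The comparison with mTEC chosen by the same rule asks which transcripts set these cells apart from medullary cells, when neither has Psmb11 or Prss16 UMIs. The gates, and so the libraries, differed as well as the cells, and mTEC were deeper, with medians of 8560.5 and 10090 UMIs. In edgeR's quasi-likelihood test with Benjamini-Hochberg adjustment, 1278 of 12722 genes passed (10.0%), 599 higher in marker-negative cells (4.71%) and 679 lower (5.34%), with a median log2 difference over all genes of -0.09. Without cTEC replicate 1, and likewise without cTEC replicate 2, no gene passed, with 3426 and 4739 at an unadjusted p below 0.05 in edgeR; these fits also dropped the data set term and took the spread from the mTEC sums, with 1 residual degree of freedom. Without mTEC replicate 1 or 2 the counts were 2384 and 2898.

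Of 15 cortical genes, 8 were higher than in mTEC, 7 did not pass and 0 were lower, with a median log2 difference of 1.496 beside -0.09 over all genes. Ackr4 had the smallest adjusted p of all genes, with a log2 difference of 5.95 ± 0.31 (SE, edgeR, adjusted p = 0.00198). Cxcl12, at 352 and 433 CPM against 22.7 and 10.4 CPM, was higher by 4.43 ± 0.55 on the log2 scale (adjusted p = 0.0067). Kitl was higher by 3.59 ± 0.32 (adjusted p = 0.0032) and Ctsl by 1.496 ± 0.33 (adjusted p = 0.0348). Scn1a, Snhg11, Ly75 and Enpep also passed; Enpep encodes the Ly51 antigen of the sort and so is no finding. Ccl25 (-0.40 ± 0.33, adjusted p = 0.469), Tbata (-1.39 ± 0.52, adjusted p = 0.134) and Foxn1 (-0.71 ± 0.39, adjusted p = 0.285) did not pass in either direction.

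Of 20 extracellular matrix genes, 6 were higher and 0 lower, with a median log2 difference of 0.46. Dcn was higher by 3.63 ± 0.28 (edgeR, adjusted p = 0.0032), which is 11.4-fold and 16.0-fold by CPM. Sparc, a matricellular glycoprotein, was at 421 and 464 CPM against 95.4 and 67.2 CPM (log2 difference 2.33 ± 0.29, adjusted p = 0.0067). Fmod, Col18a1, Mmp2 and Lamb3, which encode fibromodulin, a basement membrane collagen, a matrix protease and a laminin chain, passed too. Of 14 mesenchymal genes tested 2 were higher, Dcn and Mgp, and 2 lower, Vim and Mfap5. Vimentin, the intermediate filament of mesenchyme, was at 28.8 and 30.8 CPM against 331 and 308 CPM in mTEC.

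Among 8 tested genes of the IGF binding protein list, 3 were higher and 1 lower. Igfbp2 was at 146 and 176 CPM against 34.1 and 19.5 CPM (2.51 ± 0.34, edgeR adjusted p = 0.00864). Igfbp3 was higher by 2.75 ± 0.54 and Igfbp6 lower by a log2 difference of -4.00 ± 0.96. Igfbp7 passed as well, at 94.2 and 663 CPM against 8.71 and 5.34 CPM, but 63.3% of its UMIs in replicate 1 and 72.8% in replicate 2 came from 5 cells, and it was among the 10 leading genes of the endothelial-like group. Igfbp5 (1.38 ± 0.45, adjusted p = 0.0978) did not pass.

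Ligands of the Notch, BMP and Wnt pathways were also counted. Of 11 Notch pathway genes, 4 were higher and 0 lower: the ligands Jag1 (2.56 ± 0.35), Jag2 (2.47 ± 0.47) and Dll1 (2.92 ± 0.48) and the receptor Notch2 (1.91 ± 0.32). Jag1 was at 125 and 47.2 CPM against 15.2 and 9.29 CPM in mTEC, and above the 59.8 and 21.3 CPM of marker-positive cells. Dll4, the ligand that commits progenitors to the T lineage, was at 3.84 and 8.21 CPM and did not pass against mTEC (-0.02 ± 0.64, adjusted p = 0.985). Of 13 BMP and Wnt genes, 2 were higher: Bmp4, at 13.45 and 10.3 CPM against 0.176 and 0.259 CPM, and Wnt4, at 113 and 234 against 36.9 and 123 CPM. Bmp4 rests on few UMIs, since 3 UMIs stand for 5.77 and 6.16 CPM in marker-negative cells. In marker-positive cells Bmp4 was at 7.7 and 4.9 CPM, and Wnt4 was higher, at 162 and 540 CPM.

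Genes proposed to mark TEC progenitors passed for 3 of the 10 tested and 0 were lower. Trp63 was higher than in mTEC by 2.37 ± 0.27 (edgeR, adjusted p = 0.00524), Pdpn by 2.36 ± 0.35 (adjusted p = 0.0102) and Ly6a by 1.4995 ± 0.37 (adjusted p = 0.0483). Ly6a passed only narrowly. The secretory epithelium-like groups of 14 and 11 cells, with Ly6a at 4705 and 5844 CPM, are part of its sums. Plet1, Cd24a, Cldn3 and Cldn4 were among the 7 that did not pass, though each was over 2-fold above marker-positive cells in both libraries (on CPM + 10). Trp63 and Ackr4 were as high in marker-positive cells, so neither was particular to the marker-negative class within the gate.

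Of 12 listed genes of Aire-stage mTEC, 5 were lower in the marker-negative cells, 7 did not pass and 0 were higher, with a median log2 difference of -2.81. Aire was at 15.4 and 4.1 CPM against 390 and 366 CPM in mTEC (-5.49 ± 0.49, edgeR adjusted p = 0.0032). Fezf2 was at 26.9 and 24.6 CPM against 471 and 432 CPM, and Cd40, the receptor through which T cells drive mTEC, at 9.61 and 12.3 CPM against 178 and 138 CPM. Both passed. Ccl17, one of the 5, had no UMI in marker-negative cells and was at least 6.1-fold and 14.2-fold lower, taking 3 UMIs per library as the floor. It entered the test through mTEC alone, so its call was largely fixed by the count filter. Of 11 genes of the terminal stage 3 were lower, Calm4, Cnfn and Krtdap, of which Calm4 and Cnfn also entered the test through mTEC alone. Of 9 tuft genes 0 passed in edgeR, with 0 at an unadjusted p below 0.05 and 0 in DESeq2. Of 8 endothelial genes 4 were higher, Emcn, Egfl7, Plvap and Kdr, and the 6 and 4 cells with at least 3 endothelial genes are part of these sums. Emcn, Egfl7 and Kdr were at most 3.03 CPM in the other classes. They entered the test through the marker-negative sums, so their calls were largely fixed by the count filter.

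The early mTEC genes, which include Ccl21a and Krt14, were mixed: Pdpn was higher and Krt17 lower. Krt17, a keratin of stratified epithelium, was lower by a log2 difference of -2.24 ± 0.25. Krt14 (-0.78 ± 0.31, edgeR adjusted p = 0.153) and Ccl21a (0.07 ± 0.49, adjusted p = 0.947) did not pass. With 2 standard errors on each side, the Ccl21a estimate spans close to a 2-fold difference either way, which does not show equal levels.

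Among genes that passed with an average log2 CPM above 5, the 10 with the largest fitted change upwards were Scn1a, Ackr4, Prelp, Igfbp7, Serpinf1, Klk1, P4ha3, Il33, Kcnk2 and Pmp22. Prelp, a small proteoglycan of basement membranes, was at 84.6 and 103 CPM against 3.52 and 1.69 CPM (5.14 ± 0.45). Il33, an alarmin cytokine, was at 90.3 and 129 CPM against 3.52 and 4.61 CPM (4.63 ± 0.43, edgeR adjusted p = 0.0033). Serpinf1, the anti-angiogenic factor PEDF, was at 96.1 and 150 CPM against 3.52 and 3.74 CPM. Igfbp7 rests on few cells, as given above. Klk1 belongs to this list through 1 cell per library, and its log2 difference of 4.93 became -1.47 when cells with a UMI of Cldn3, Cldn4 or Cldn7 were left out. In marker-positive cells Il33 was at 15.4 and 47 CPM and Serpinf1 at 59.8 and 169 CPM, so that Il33 was lower there in both libraries and Serpinf1 was not.

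The rule named 10 genes in the other direction, S100a9, Fabp6, Pyy, Tff1, Nts, Mt4, Ang4, Apoa1, Rarres1 and Dppa3, which had no UMI in marker-negative cells. They entered the test through mTEC alone, and with a group at 0 their fitted values give no order among them. S100a9, a calcium-binding protein of neutrophils, was at 240 and 248 CPM in mTEC, so at least 41.6-fold and 40.3-fold lower on the floor of 3 UMIs per library. Pyy, a gut hormone, was at least 19.5-fold and 34.5-fold lower. Products of gut, liver and other tissues in this list are of the kind that mTEC display.

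**Figure D5:**
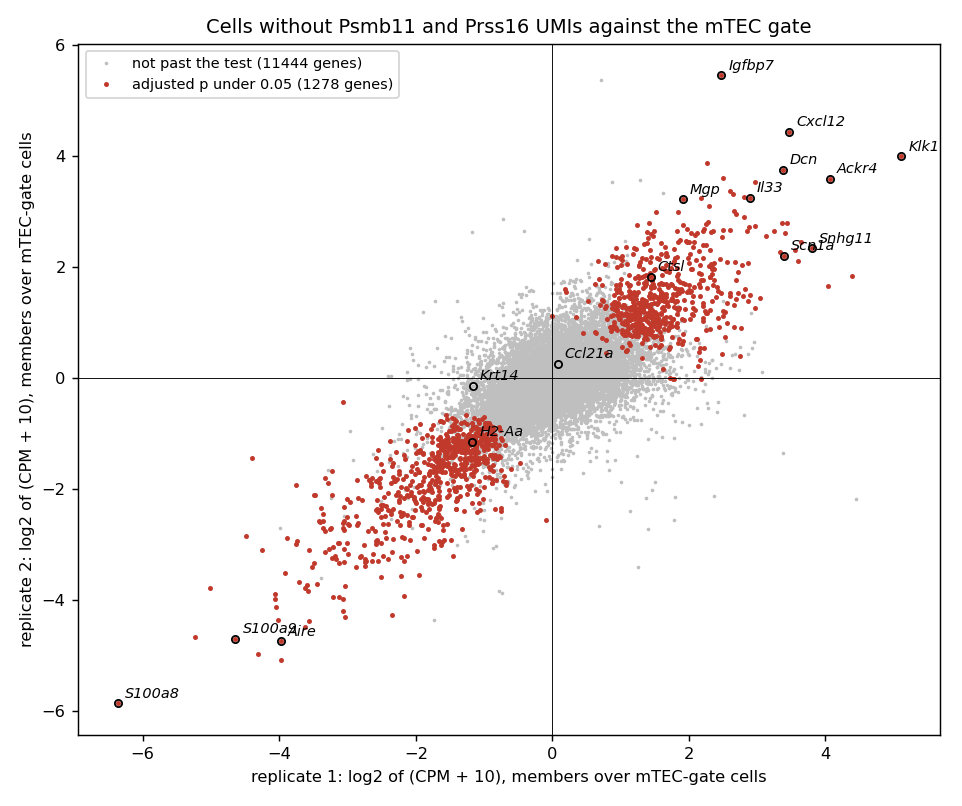
Log2 ratio of marker-negative cells to mTEC by the same rule, on CPM + 10, in replicate 1 (x axis) and replicate 2 (y axis), with 1 point per gene tested; the 1278 red points passed the edgeR threshold and the 11444 grey ones did not. Ackr4, Dcn and Cxcl12 lie at the upper right and Aire and S100a9 at the lower left, while Ccl21a lies near the origin among the grey points.

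Antigen presentation and stress genes were counted as well. Of 10 MHC class II genes, 4 were lower than in mTEC and 0 higher, with H2-Aa at 3018 and 3088 against 6804 and 6853 CPM (-1.29 ± 0.22, edgeR adjusted p = 0.0162), while none differed by over 2-fold (on CPM + 10) from marker-positive cells in both libraries. Of 14 chemokine and cytokine genes tested 2 were higher, Kitl and Cxcl12, and 5 lower, among them Cxcl10 and Il15. Of 18 genes that respond to tissue digestion, most of them immediate early genes, 8 were higher, 10 did not pass and 0 were lower, with Fos at 5117 and 3653 CPM against 2040 and 927 CPM in mTEC. The summed list was at 23775 and 17773 CPM in marker-negative cells, 20595 and 11562 CPM in marker-positive cells and 11653 and 6216 CPM in mTEC. It was highest in marker-negative cells in both libraries and lowest in mTEC, and its part in the differences above was not tested.

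Of 15 cell cycle genes 0 passed against mTEC in edgeR, 0 had an unadjusted p below 0.05, and 0 passed in DESeq2. Their sum was at 807 and 999 CPM in marker-negative cells, 448 and 891 CPM in marker-positive cells and 860 and 768 CPM in mTEC. Top2a, which untangles DNA in dividing cells, was at 61.5 and 30.8 CPM against 13.6 and 34.3 CPM in marker-positive cells, so above them in replicate 1 and not in replicate 2. Myc, the growth regulator the study follows, was at 53.8 and 53.4 CPM in marker-negative cells, 29.6 and 45.5 CPM in marker-positive cells and 54.5 and 26.1 CPM in mTEC (0.32 ± 0.46 against mTEC, adjusted p = 0.694). Mycn and Hmga2, genes of fetal tissue, had no UMI in marker-negative cells. Ribosomal protein genes took 15.2% and 21.5% of UMIs in marker-negative cells, and 12.8% and 19.1% in marker-positive cells, a gap between classes smaller than that between libraries.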

How the data were processed

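The authors made Chromium 3′ version 2 libraries, and the deposited matrices hold raw counts of UMIs per gene and barcode of called cells, not normalized. Per the labels, bcl2fastq 2.17, Cell Ranger 2.0.1 and STAR 2.5.1b were used with build mm10; for the second data set, however, the files themselves carry version 3.0.1 of Cell Ranger. Gene lists differed (27998 and 31053 genes), and the 27514 shared genes were used. Total UMIs of kept cells were 2257967 and 4047375 in the adult cTEC libraries and 16693205 and 67536650 in the mTEC libraries.

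Counts were summed per library and class (marker-negative, marker-positive, mTEC; 6 sums) and tested in edgeR 4.0.16 (R 4.3.3): quasi-likelihood, filterByExpr, TMM, data set as a block, Benjamini-Hochberg threshold 0.05. Psmb11, Prss16, Bpifa1 and mitochondrial genes were left out of the tests. Replicates are libraries that may share a source, so p-values may measure technical spread; an exact test of 2 against 2 cannot go below 0.333. Replicate numbers follow accession order and pair only through the data sets. Members and lists were chosen with earlier results of these data known. Named genes were list members plus the 10 largest changes in each direction with an average log2 CPM above 5 and one sign in both data sets; Myc, Mycn and Hmga2 were added. Marker-negative cells were clustered per library (1000 variable genes, 10 components, 10 neighbours, Leiden resolution 0.8; leidenalg 0.10.2). A group took a list's name with at least 3 and over 50% of its markers 2-fold up and more of them among its 10 leading genes than any other list, a rule set after the data were seen. No doublet caller was run; leaving out the deepest cells was tried. Libraries shared at most 84 barcodes, and the adult cTEC libraries 1. Intervals and floors cover counting error only. On simulated counts of 12038 genes, the mTEC contrast recovered 48 of 100 genes changed by 2 and 6 of 100 changed by 1 on the log2 scale, with 8.47% of calls false. The result for 1 gene is not reported here.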

Additional observations from a re-analysis of the deposited data

How the results depend on the processing

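Counts of genes depended on the fit; the cause was not tested. Against marker-positive cells, where 17 genes passed, the count was 555 with no filter on low counts, 226 with DESeq2, 434 with only the 4 cTEC sums, 49 in cells thinned to 3000 UMIs, 6 without marker-negative cells above the 95th percentile of UMIs, 11 without marker-negative cells with a blood cell UMI, 36 without marker-negative cells with a Bpifa1 UMI and 693 with at least 5 UMIs required of marker-positive cells; with DESeq2's size factors in edgeR, which gave 13, 8 were higher and 5 lower. Without the replicate block it was 0 (1348 at an unadjusted p below 0.05 in edgeR), and leaving out 1 library gave 0 to 823; without a cTEC library the data set term was dropped too. Against mTEC, where 1278 passed, it was 2499 with no filter (median log2 difference of all genes -0.84), 763 without the replicate block, 765 in cells thinned to 3000 UMIs, and 0 to 2898 with 1 library left out. Of alternatives chosen after seeing the data, leaving out marker-negative cells with a UMI of Cldn3, Cldn4 or Cldn7 gave 0 (1040 unadjusted, edgeR) and of Ccl21a 53 against marker-positive cells. Shares that met the rule were 47.8% and 31.2% at 1500 UMIs, and 27.5% and 22.0% at 3000. At 3000 UMIs Dcn was in 62.3% and 61.0%, Krt14 in 44.2% and 50% and Ccl21a in 51.9% of replicate 1; as deposited these were 57.3% for Dcn in replicate 2, 40.5% and 52.1% for Krt14 and 49.7% for Ccl21a. At resolution 0.4 there were 5 and 3 groups. Ccl21a against mTEC turned to -0.017 with no filter, -0.60 without cTEC replicate 1, -0.36 without mTEC replicate 1 (0.55 without mTEC replicate 2), -0.17 in thinned cells, -0.069 without Bpifa1 cells and -18.8 without Ccl21a cells, the last by construction. Bgn turned to -0.23 without cTEC replicate 2 and -0.20 without mTEC replicate 1 (0.48 without mTEC replicate 2), and Klk1 to -1.47 without Cldn cells. Of 575 values for 36 named genes, 484 kept direction and side of the threshold, 72 lost the call, 10 gained one and 9 reversed.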
